A study of Mus musculus with 46 samples.

Results

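AP-1 is the family of paired bZIP transcription factors that includes the FOS and JUN proteins. 8 of its genes were followed here from mouse embryonic fibroblasts (MEF) to induced pluripotent stem cells (iPSC), namely Fos, Fosb, Fosl1, Fosl2, Jun, Junb, Jund and Atf3. They were taken by symbol, and all 8 were found among the 37108 genes of the gene table and the 35976 genes of the iPSC table. The data are RNA-seq levels in FPKM, that is, fragments scaled to gene length and to the mapped fragments of the library. This makes levels roughly comparable between genes and between samples, although the total FPKM differs between libraries.

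The MEF came from E13.5 embryos of OG2 males, which carry an Oct4-GFP reporter, crossed to wild-type females of another strain. All reprogramming samples received retroviral Oct4. They received with it either native Nanog (Nanog+Oct4 in the labels, NanogWT here) or NanogN70, in which the first 70 residues of SS18, the part that binds the remodelling ATPase BRG1, were fused to Nanog (NanogBiD here). D0 followed 2 rounds of infection of 24 h each. The cells then grew in iCD3 medium and, after 7 days, in N2B27 with the GSK3 inhibitor CHIR99021, the MEK inhibitor PD0325901 and LIF (2iL), so that the D8, D10 and D12 samples differ from the earlier ones in medium as well as in time. Each combination was sampled on 8 days between D0 and D12 with 2 libraries a day, except NanogBiD at D8 with 1, which makes 31 time-course libraries. Uninfected MEF (2 libraries), mES with the OG2 reporter (1 library) and 12 iPSC libraries (6 per combination, labelled iPSC1 or iPSC2) completed the set. The column headers mark iPSC1 as p5 or p6, iPSC2 and MEF as p2 and mES as p20, read here as passages. iPSC1 and iPSC2 are called lines below, a word that the labels do not use. By their labels, the NanogWT iPSC1 samples 1# and 1#-2 may come from 1 clone, in which case these 6 libraries are not all independent. The iPSC and mES were kept in 2iL medium.

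FOS proteins cannot pair among themselves and bind DNA as partners of JUN proteins, whereas JUN proteins can also pair with each other and with ATF3. Fos, Fosb, Jun, Junb and Atf3 are classical immediate-early or stress-response genes, switched on within minutes of growth factor or stress signals through the ERK, JNK and p38 kinases. Fosl1 and Fosl2 (FRA-1 and FRA-2) follow more slowly, and Jund is present in most resting cells. In fibroblasts AP-1 occupies many of the enhancers that keep the somatic programme active, which is why its members are often described as keepers of the somatic state in reprogramming.

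The start regions of 4 members are printed because the results turn on these genes: Fos and Jun as the first responders, Atf3 as the stress-induced partner, and Fosl2 as the gene with the widest difference between the combinations. Each sequence runs 5′ to 3′ from 250 bases before to 50 bases after the RefSeq start site (build GRCm38.p6, the assembly known as mm10), and capitals mark matches to the motifs named in the next paragraph.
Fos, chr12:85473640-85473939, plus strand: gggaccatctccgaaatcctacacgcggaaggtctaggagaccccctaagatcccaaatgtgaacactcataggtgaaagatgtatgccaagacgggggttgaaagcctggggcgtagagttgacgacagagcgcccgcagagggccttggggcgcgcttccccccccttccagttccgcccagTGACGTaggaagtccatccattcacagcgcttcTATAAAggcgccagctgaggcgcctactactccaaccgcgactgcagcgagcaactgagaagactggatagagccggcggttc
Jun, chr4:95052173-95052472, minus strand: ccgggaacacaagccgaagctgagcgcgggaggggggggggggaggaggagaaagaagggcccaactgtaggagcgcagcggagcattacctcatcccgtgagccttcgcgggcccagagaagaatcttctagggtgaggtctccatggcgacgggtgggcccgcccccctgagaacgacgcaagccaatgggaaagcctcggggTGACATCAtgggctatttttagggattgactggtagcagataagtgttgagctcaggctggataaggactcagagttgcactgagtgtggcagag
Atf3, chr1:191183284-191183583, minus strand: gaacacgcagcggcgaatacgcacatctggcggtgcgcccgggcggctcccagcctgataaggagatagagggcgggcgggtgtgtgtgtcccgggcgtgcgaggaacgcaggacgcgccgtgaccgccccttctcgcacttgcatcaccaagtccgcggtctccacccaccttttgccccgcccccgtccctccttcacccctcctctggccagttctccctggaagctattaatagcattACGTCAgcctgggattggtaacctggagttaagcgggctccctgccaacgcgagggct
Fosl2, chr5:32136222-32136521, plus strand: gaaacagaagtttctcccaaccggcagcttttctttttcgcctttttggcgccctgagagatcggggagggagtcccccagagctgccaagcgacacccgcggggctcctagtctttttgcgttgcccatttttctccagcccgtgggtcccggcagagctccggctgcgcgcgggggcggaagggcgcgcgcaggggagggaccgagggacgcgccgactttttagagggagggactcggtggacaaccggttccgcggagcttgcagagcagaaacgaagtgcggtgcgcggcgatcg

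RefSeq start regions were at hand for 7 of the 8 members (Fosl1 had none). They were searched on both strands for the AP-1 site TGANTCA, for its one-base-longer form TGACNTCA, for the CRE core TGACGT, for the CArG box bound by SRF, and for TATAAA. Fos held TGACGT 66 bases and TATAAA 33 bases before the start site. Atf3 held TGACGT on the opposite strand, with its first base 8 bases before the start, and Jun held TGACNTCA 45 bases before it. Junb held TATAAA at the start site itself, and Fosb, Fosl2 and Jund held none of the 5 motifs. The AP-1 site TGANTCA and the CArG box were in none of the 7 windows. Over the 27025 start regions of the same length, TGANTCA was in 7.93%, TGACNTCA in 8.97%, TGACGT in 7.64%, TATAAA in 14.2% and the CArG box in 1.57%, so that these matches are descriptions of the windows and no more.

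The genes themselves differ in build. Fos (chr12:85473890-85477274), Fosb (chr7:19302696-19310118), Fosl1 (chr19:5447698-5455938), Fosl2 (chr5:32136472-32157840) and Atf3 (chr1:191170296-191183333) have 4 exons each in their longest transcript. Jun (chr4:95049036-95052222), Junb (chr8:84976909-84978748) and Jund (chr8:70697739-70700616) have 1 exon in theirs. The spans are those of RefSeq, whereas exons and GC are those of the longest GENCODE transcript. For Jund that transcript has 1668 bases, fewer than its span, so the span and the start region searched may belong to another form. Junb and Jund are rich in GC (62.6% and 67.1% of the longest transcript, above 97.8% and 99.5% of the genes tested). The fold between the 2 libraries of a group had its highest median in Junb (1.55) and its lowest in Fosl2 (1.18) and Jund (1.19). It reached 6.38 for Fosb, at NanogBiD D7, 2.88 for Fos, at NanogBiD D12, and at NanogWT D0 5.13 for Junb, 3.10 for Atf3, 2.64 for Fosl1, 2.51 for Jund and 2.09 for Jun, while Fosl2 stayed within 1.58. Fosl1 overlaps 1 other gene in the annotation, Ccdc85b, and whether reads were counted by strand is not stated, so its values carry that uncertainty. Macrophage markers summed to 3.93 and 7.42 FPKM in MEF, to 49.1 to 138 FPKM in the D0 libraries and to 40.2 FPKM at most later. Their part in the D0 values, and so in the differences of D0 from MEF, was not tested.

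Levels were compared as log2(FPKM + 1) with limma, in 1 fit over the 31 time-course libraries, and MEF was added to that fit for comparisons with it. A difference counts as called where its p, adjusted over all 16842 genes tested by the Benjamini-Hochberg procedure, was under 0.05 and its size was at least 1 on the log2 scale (2-fold on that scale). The labels do not say whether the 2 libraries of a group came from separate cultures, so p-values measure the spread between these libraries, which may be technical. In bulk RNA, fewer cells that express a gene and less RNA per cell cannot be told apart.

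The first question was whether the 2 combinations differ in AP-1 transcripts on a given day. They did. For Fos and Jun the called differences turned from higher to lower in NanogBiD after the switch to 2iL, while Fosl2 was called lower on both sides of it. Between D3 and D7, NanogBiD cells held more Fos (D3), Jun (D5) and Atf3 (D5 and D7) than NanogWT cells, and less Fosl1 (D3) and Fosl2 (D7). At D10 and D12 they held less Fos, Fosl2, Jun and Junb, and the widest gap was that of Fosl2, with log2 differences of -2.97 and -2.95. No member was called in the higher direction on these last days.

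Counted over the 8 members, 1 was called lower in NanogBiD at D0 (Fosl1), where 0.338% of all genes tested were called lower and 0.76% in all. At D1 no member was called by limma and none had an unadjusted p under 0.05, while 1.33% of all genes were called. At D3, 1 member was higher (Fos) beside 1.25% of all genes, and 1 was lower (Fosl1) beside 2.45%, with 3.7% called in all. At D5, 2 were higher (Jun and Atf3) beside 3.2% of all genes, with 6.48% in all. At D7, 1 was higher (Atf3) beside 5.79% and 1 lower (Fosl2) beside 4.65%, with 10.4% in all.

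At D10 the count was 4 members, all lower, where 12.3% of all genes were called lower and 27.8% in all. The same 4 were lower at D12, beside 9.97% lower and 23.4% in all. The median log2 difference of the 8 members was 0.61 at D5, -0.80 at D10 and -0.88 at D12. D5 was the only day with a median above 0, since it was below 0 at D0, D1, D3 and D7 as well. The median of all genes tested was 0.08 at D5, 0.10 at D10 and 0.17 at D12.

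**Figure D1:**
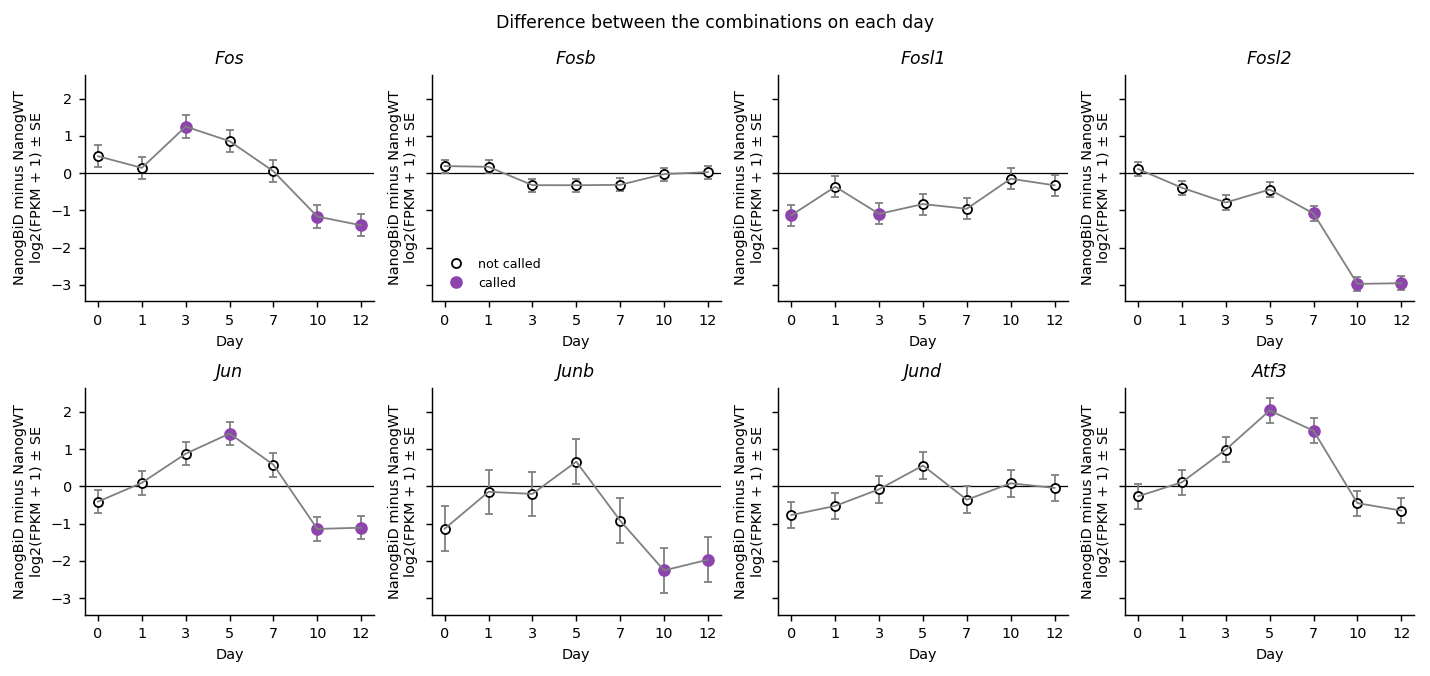
NanogBiD minus NanogWT on the log2(FPKM + 1) scale (y axis, ± SE from limma) against day (x axis) for the 8 AP-1 genes, with filled points for called differences and open points for the others. Fos, Jun and Atf3 lie above 0 from D3 to D7, while Fos, Fosl2, Jun and Junb lie below -1 at D10 and D12 and Jund stays near 0 on those days.

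Fosl2 encodes FRA-2, the most abundant FOS-family transcript of these fibroblasts. In uninfected MEF it stood at 53.8 and 46.5 FPKM. At D0 the libraries were alike, with 37.4 and 35.1 FPKM in NanogBiD and 34.4 and 32.6 FPKM in NanogWT. By D1 it stood at 10.2 and 10.4 FPKM in NanogBiD and at 12.1 and 15.9 FPKM in NanogWT. Both changes were called, at -1.72 (SE 0.19, adjusted p = 1.8e-06) and -1.21 (SE 0.19, adjusted p = 8.9e-05) on the log2 scale. After D1 the courses parted.

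In NanogWT, Fosl2 held at 16.02 to 19.9 FPKM from D3 to D7 and was back at 51.2 and 32.4 FPKM at D8, 51.0 and 50.4 FPKM at D10 and 44.2 and 36.4 FPKM at D12. Replicate 1 of D8 and both D10 libraries lay between the 2 MEF libraries. Both D12 libraries lay below them, with a difference of D12 from MEF of -0.31 (limma, SE 0.19, adjusted p = 0.21), not called. In NanogBiD it went from 9.44 and 11.7 FPKM at D3 and 11.4 and 13.4 FPKM at D5 to 8.52 and 6.90 FPKM at D7, 10.9 FPKM in the library of D8, 6.35 and 4.89 FPKM at D10 and 3.81 and 4.86 FPKM at D12. Every NanogBiD library from D3 on was below every NanogWT library of the same period. The mES library held 0.528 FPKM, so NanogBiD at D12 was still 1.80 above it on the log2 scale. In the order of the group means, NanogWT D10, MEF, NanogWT D8 and NanogWT D12 came first, and these neighbours did not differ beyond their spread. The 2 groups of D0 followed, then NanogWT D3, D7, D5 and D1, then all later NanogBiD groups, and mES came last, below every other library.

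Between the combinations, the log2 difference of NanogBiD from NanogWT in Fosl2 was -0.79 at D3 (SE 0.19, adjusted p = 0.0098), short of the 2-fold limit, and -1.08 at D7 (SE 0.19, adjusted p = 0.00022). It was -2.97 at D10 (SE 0.19, adjusted p = 3.2e-10) and -2.95 at D12 (SE 0.19, adjusted p = 3.1e-10). The rise of Fosl2 in NanogWT from D7 to D12 was called at 1.16 (adjusted p = 9.5e-05), and the change over these days differed between the combinations by -1.87 (SE 0.27, adjusted p = 4.0e-05). At D12 the call remained without any of the 4 libraries in turn. The D7 call was lost without replicate 2 of NanogBiD D7 (-0.95) and without replicate 1 of NanogWT D7 (-0.97), in both cases for the fold limit and not the adjusted p.

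Fosl1 encodes FRA-1, a target of ERK signalling. It stood at 7.08 and 15.2 FPKM in MEF. Its highest group means were those of D1, with 13.6 and 16.8 FPKM in NanogBiD and 18.7 and 20.8 FPKM in NanogWT, from 6.32 and 3.81 FPKM and 19.3 and 7.31 FPKM at D0. At D3 it stood at 2.40 and 2.05 FPKM against 5.64 and 6.11 FPKM, at D7 at 1.28 and 0.974 FPKM against 3.67 and 2.64 FPKM, and from D8 on no library of either combination exceeded 1.275 FPKM. The mES library held 0.162 FPKM.

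The NanogBiD libraries were below the NanogWT libraries on every day from D0 to D7. The difference was called at D0 (-1.13, SE 0.28, adjusted p = 0.044) and at D3 (-1.09, SE 0.28, adjusted p = 0.016). At D7 it was -0.96 (SE 0.28, adjusted p = 0.015), just short of the fold limit, which it passed with a pseudocount of 0.1 (-1.40), at a common total (-1.24), after quantile normalization (-1.07) and with GC and length trends removed (-1.07). The D0 call was lost with a pseudocount of 0.1, without the filter, at a common total and with those trends removed (-0.97). It was lost as well without replicate 1 of NanogWT D0 (-0.49), without replicate 2 of NanogBiD D0 (-0.83) and without replicate 1 of NanogBiD D0 (-1.43, adjusted p = 0.051), and the D3 call was lost without any of its 4 libraries (-1.02 to -1.17). Within NanogBiD, Fosl1 rose from D0 to D1 by 1.44 (SE 0.28, adjusted p = 0.00086) and fell by 1.48 from D0 to D7 (adjusted p = 0.00027). In NanogWT it fell by 1.66 from D0 to D7 (adjusted p = 9.0e-05).

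Fos, the founding member of the family and an immediate-early gene, was low in MEF (3.42 and 3.85 FPKM) and higher at D0, with 12.5 and 11.6 FPKM in NanogBiD and 9.71 and 7.47 FPKM in NanogWT. Both rises over MEF were called, by 1.49 (SE 0.29, adjusted p = 0.00066) and 1.04 (SE 0.29, adjusted p = 0.016). The NanogWT call was lost without replicate 1 of D0 (0.87) and without replicate 1 of MEF (0.97). In NanogBiD, Fos then reached 23.1 and 17.3 FPKM at D3 and 16.9 and 21.6 FPKM at D5, above all 4 NanogWT libraries of those days (6.56 to 11.9 FPKM). At D7 the combinations met again, at 8.73 and 9.02 FPKM against 8.87 and 8.24 FPKM. By D10 NanogBiD stood at 0.998 and 1.84 FPKM, below the mES library with 2.24 FPKM, while NanogWT held 3.98 and 4.74 FPKM. At D12 the values were 1.53 and 4.41 FPKM against 6.64 and 11.5 FPKM.

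The difference in Fos between the combinations was 1.25 at D3 (SE 0.30, adjusted p = 0.0099), 0.86 at D5 (SE 0.30, adjusted p = 0.056), 0.05 at D7, -1.17 at D10 (SE 0.30, adjusted p = 0.0026) and -1.40 at D12 (SE 0.30, adjusted p = 0.00063). The D12 value rested in part on 1 library: without replicate 1 of NanogBiD D12 it was -0.85 and not called. The D10 value was -0.91 without replicate 1 of NanogBiD D10. The D3 call was lost without replicate 2 of NanogWT D3 (1.02, adjusted p = 0.14) and without replicate 1 of NanogBiD D3 (1.05, adjusted p = 0.10). The change from D7 to D12 was -1.42 in NanogBiD (adjusted p = 0.00069) and 0.03 in NanogWT, and the difference between these changes was -1.45 (SE 0.42, adjusted p = 0.018). That call was lost without replicate 1 of NanogBiD D12 (-0.90), replicate 2 of NanogWT D12 (-1.10) or replicate 2 of NanogWT D7 (-1.40, adjusted p = 0.053), and the change within NanogBiD was -0.87 without replicate 1 of NanogBiD D12.

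Fosb, which encodes a close relative of FOS, was the lowest member throughout the time course. No time-course library exceeded 1.25 FPKM, the MEF libraries held 1.03 and 2.25 FPKM, and mES held 0.0696 FPKM. At D12 its log2 difference from MEF was -1.06 in NanogBiD and -1.09 in NanogWT (adjusted p = 0.00012 and 0.00018), calls that were lost for the fold limit without replicate 2 of MEF (-0.72 and -0.75). No difference between the combinations was called. At these levels the pseudocount matters, since with 0.1 in place of 1 the D7 difference was -1.27 (adjusted p = 0.049, called) in place of -0.32.

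**Figure D2:**
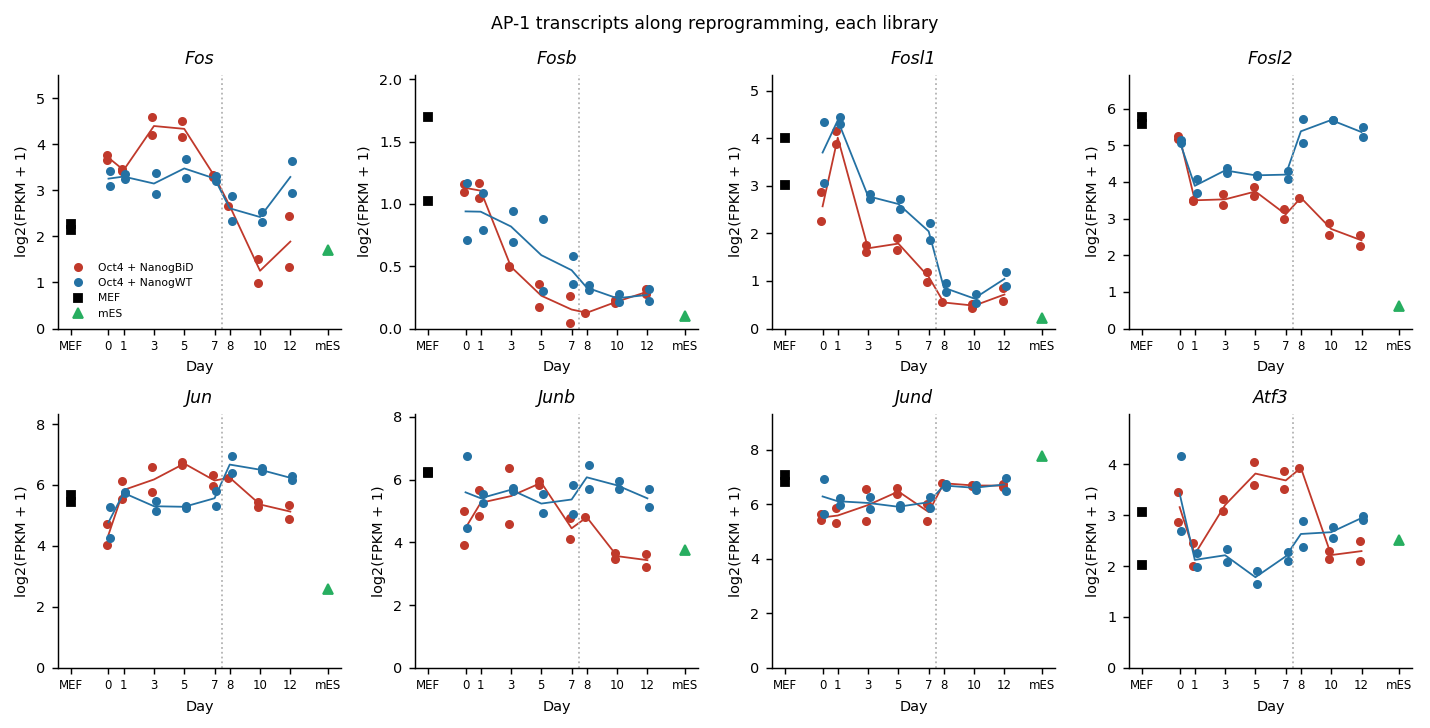
log2(FPKM + 1) of the 8 AP-1 genes (y axis) in every library of the time course by day (x axis; red NanogBiD, blue NanogWT, lines through the means), with MEF as black squares and mES as a green triangle. The dotted line marks the switch to 2iL medium, after which Fosl2 lies at 32.4 to 51.2 FPKM in NanogWT, near MEF, and at 3.81 to 10.9 FPKM in NanogBiD.

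Jun encodes the main FOS partner and is itself induced through JNK. It stood at 42.2 and 50.3 FPKM in MEF. D0 libraries were below this, at 25.1 and 15.3 FPKM in NanogBiD and 38.1 and 18.2 FPKM in NanogWT. In NanogBiD it stood at 69.3 and 45.4 FPKM at D1, 94.4 and 54.2 FPKM at D3 and 99.2 and 107 FPKM at D5. In NanogWT it lay at 34.4 to 53.0 FPKM from D1 to D5, so both NanogBiD libraries of D5 were well above both of NanogWT (37.2 and 38.8 FPKM).

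After the switch the order turned. NanogWT stood at 122 and 83.1 FPKM at D8 and held 92.9 and 86.6 FPKM at D10 and 78.4 and 70.6 FPKM at D12. NanogBiD went from 80.01 and 60.9 FPKM at D7 and 74.6 FPKM at D8 to 37.7 and 42.6 FPKM at D10 and 28.8 and 39.99 FPKM at D12. All of these exceeded the 5.06 FPKM of the mES library. The difference between the combinations was 1.42 at D5 (SE 0.32, adjusted p = 0.0037), 0.58 at D7 (adjusted p = 0.19), -1.14 at D10 (SE 0.32, adjusted p = 0.0047) and -1.11 at D12 (SE 0.32, adjusted p = 0.0065). Without replicate 1 of NanogBiD D12 the last was -0.88 (adjusted p = 0.080).

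Within NanogBiD, Jun rose from D0 to D1 by 1.47 (adjusted p = 0.0019), stood 1.78 above D0 at D7 (adjusted p = 0.00013) and fell from D7 to D12 by 1.02 (adjusted p = 0.013). The last call was lost without replicate 1 of NanogBiD D12 (-0.79) and without replicate 1 of NanogBiD D7 (-0.83). The change from D7 to D12 differed between the combinations by -1.69 (SE 0.45, adjusted p = 0.0096), a call lost without replicate 1 of NanogBiD D12 (-1.46, adjusted p = 0.053) or replicate 2 of NanogWT D7 (-1.45, adjusted p = 0.052).

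Junb, whose protein can oppose JUN in growth control, stood at 73.7 and 74.0 FPKM in MEF. The libraries of a pair diverged more than for any other well-expressed member (106 and 20.7 FPKM at NanogWT D0, 81.3 and 23.0 FPKM at NanogBiD D3), and the SE of its differences was 0.60. At D10 NanogBiD held 11.6 and 10.0 FPKM against 60.6 and 50.4 FPKM in NanogWT, and at D12 8.32 and 11.5 FPKM against 50.5 and 33.6 FPKM. The NanogBiD values were near the 12.6 FPKM of mES. The differences of -2.26 (adjusted p = 0.0034) and -1.97 (adjusted p = 0.0099) were called. The D12 call was lost without replicate 1 of NanogBiD D12 (-1.76, adjusted p = 0.071) and without replicate 1 of NanogWT D12 (-1.68, adjusted p = 0.080).

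Jund, the member of resting cells, was highest in the mES library (216 FPKM), followed by group mean by MEF (134 and 113 FPKM). From D1 to D7 it ran from 38.6 to 94.5 FPKM in NanogBiD and from 56.0 to 76.2 FPKM in NanogWT, and from D8 on the 2 combinations overlapped at 87.7 to 125 FPKM. The difference between them was 0.08 at D10 and -0.04 at D12 (SE 0.36 for both), and none was called on any day. It was below MEF at NanogBiD D0, at 48.5 and 41.4 FPKM (-1.44, SE 0.35, adjusted p = 0.0040), a difference that shrank to -0.86 when trends over GC content and length were removed.

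Atf3 encodes a bZIP factor induced by many stresses. At D0 it held 9.96 and 6.27 FPKM in NanogBiD and 16.9 and 5.44 FPKM in NanogWT, and at D1 2.93 to 4.50 FPKM over the 4 libraries. In NanogBiD it then stood at 8.96 and 7.49 FPKM at D3, 15.5 and 11.03 FPKM at D5, 10.4 and 13.5 FPKM at D7 and 14.2 FPKM in the D8 library, and at 3.92 and 3.39 FPKM at D10 and 3.27 and 4.63 FPKM at D12. NanogWT stayed between 2.15 and 4.05 FPKM from D3 to D7 and ended at 6.47 and 6.93 FPKM at D12. The MEF libraries (7.30 and 3.07 FPKM) and mES (4.70 FPKM) did not separate from each other for this gene.

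The difference in Atf3 was 0.99 at D3 (SE 0.33, adjusted p = 0.067), 2.04 at D5 (SE 0.33, adjusted p = 0.00020) and 1.49 at D7 (SE 0.33, adjusted p = 0.0020), with the D5 and D7 calls kept without any of their libraries in turn. At D10 and D12 it was -0.45 and -0.65, neither called. Atf3 fell in NanogBiD from D7 to D12 by 1.39 (adjusted p = 0.0020) and changed by 0.75 in NanogWT, a difference of -2.14 (SE 0.47, adjusted p = 0.0024). From D0 to D7 the changes differed by 1.76 (SE 0.47, adjusted p = 0.014), a call lost without replicate 1 of NanogWT D0 (1.02, adjusted p = 0.078), the library with 16.9 FPKM, and also without replicate 2 of NanogBiD D0 (1.46), of NanogBiD D7 (1.58) or of NanogWT D7 (1.67).

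The change of medium fell between D7 and D8. With 1 NanogBiD library at D8, that step is described without a test. On the log2 scale Fos changed by -0.64 in NanogBiD and -0.65 in NanogWT, and Fosl1 by -0.54 and -1.18. Fosl2 changed by 0.45 and 1.18, Jun by 0.09 and 1.10, Junb by 0.35 and 0.71 and Jund by 1.05 and 0.61. Atf3 changed by 0.25 and 0.44 and Fosb by -0.03 and -0.14. The other immediate-early genes did not share 1 direction. Dusp1, a phosphatase acting on MAP kinases, changed by 0.99 and 1.54, and Cyr61 by 1.27 and 1.14. Egr1, driven by ERK, went from 10.6 and 16.2 FPKM to 0.118 FPKM in NanogBiD and from 27.7 and 31.3 FPKM to 1.57 and 1.99 FPKM in NanogWT. Time and medium cannot be told apart in these steps.

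The make-up of each family, as shares of its summed FPKM, also shifted. Fosl2 supplied 68.6% and 82.4% of FOS-family FPKM in the MEF libraries. In NanogBiD, Fos became the largest share, with 55.0% and 65.4% at D3 and 54.3% and 57.7% at D5, against 19.6% to 34.7% in NanogWT on those days. By D10 Fosl2 supplied 90.4% and 91.3% in NanogWT, of a FOS-family total of 55.7 and 55.8 FPKM. In NanogBiD it then supplied 67.3% and 80.03%, of a total of 7.26 and 7.94 FPKM. Among JUN genes, Jund supplied 92.5% in mES, 67.5% and 72.3% in NanogBiD D12 and 45.7% and 49.3% in NanogWT D12, beside 47.6% and 53.6% in MEF.

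**Figure D3:**
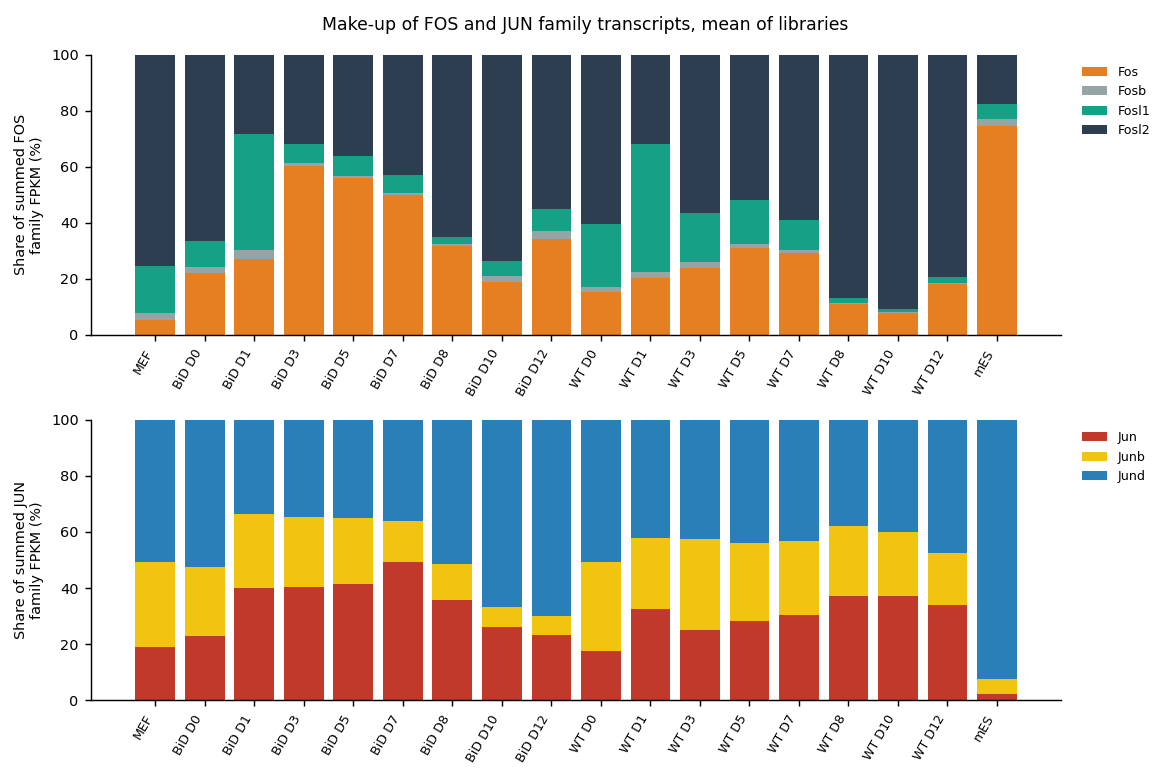
Share of the summed FPKM of the FOS family (top) and the JUN family (bottom) supplied by each gene (y axis, percent, mean of the libraries of a group) in MEF, the time-course groups and mES (x axis). Fosl2 takes most of the FOS total in MEF, at D0, in NanogWT from D3 on and in NanogBiD from D8 on. Fosl1 takes the largest share at D1, and Fos in NanogBiD from D3 to D7 and in mES. The share of Jund in the JUN total is highest in mES.

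Against uninfected MEF, NanogBiD at D12 had 4 members called, all lower (Fosb, Fosl1, Fosl2 and Junb), where 8.57% of all genes were called lower and 31% in all. The log2 difference was -3.27 for Fosl2 (SE 0.19, adjusted p = 1.2e-11), -2.80 for Fosl1 (SE 0.32, adjusted p = 2.1e-07) and -2.80 for Junb (SE 0.58, adjusted p = 0.00034). NanogWT at D12 had 2 members lower (Fosb and Fosl1), beside 4.23% of all genes, and 1 higher (Fos), beside 13%, with 17.2% called in all. Fosl1 differed by -2.47 (SE 0.32, adjusted p = 2.4e-06) and Fos by 1.08 (SE 0.29, adjusted p = 0.0061). The Fos value was 0.72 and not called without replicate 2 of NanogWT D12, 0.83 after quantile normalization and 0.89 with GC and length trends removed. Both comparisons use the same MEF libraries. At D0, before the change to iCD3 medium, NanogBiD had 1 member higher than MEF (Fos), beside 5.84% of all genes, and 3 lower (Jun at -1.19, Junb at -1.77 and Jund at -1.44), beside 5.51%, with 11.4% called in all. NanogWT had 1 higher (Fos), beside 3.71%, with 6.75% in all. The Jun call at NanogBiD D0 was lost with GC and length trends removed (-0.93) and the Junb call without the filter (adjusted p = 0.059). Both were lost without replicate 2 of NanogBiD D0 (-0.85 and -1.23) and without replicate 2 of MEF (-1.07 and -1.77), and that of Junb also without replicate 1 of MEF (-1.77, adjusted p = 0.091). Without replicate 1 of NanogWT D0, NanogWT had 3 members called against MEF, all lower (Jun, Junb and Jund), and Fos was no longer called. Macrophage markers were higher in all D0 libraries than in MEF, and their part in these differences was not tested.

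Within the combinations, NanogBiD had 2 members higher at D1 than at D0 (Fosl1 and Jun, beside 5.06% of all genes) and 1 lower (Fosl2, beside 3.79%), with 8.85% called in all. NanogWT had 2 lower (Fosl2 and Atf3, beside 3.03%), with 7.64% in all. In NanogWT, Fosl1 changed by 0.68 and Jun by 0.96 over this step, and without replicate 1 of NanogWT D0 both were called higher, at 1.32 (adjusted p = 0.00060) and 1.47 (adjusted p = 0.0041), Jun also at a common total (1.04). From D0 to D7, NanogBiD had Jun higher (12.7%) and Fosl1 and Fosl2 lower (6.15%), with 18.8% in all, and NanogWT had Fosl1 and Atf3 lower (5.69%), with 17.7% in all. Fosl2 over these days differed by -2.10 (adjusted p = 3.1e-08) in NanogBiD and by -0.91 (adjusted p = 0.00069), under the fold limit, in NanogWT, which it passed without replicate 1 of NanogWT D7 (-1.02) and with GC and length trends removed (-1.29). Jun in NanogWT was called higher at D7 without replicate 1 of NanogWT D0 (1.30). Fosb in NanogBiD, at low FPKM, differed by -0.98 from D0 to D7 (limma, adjusted p = 0.00013), under the fold limit. It was called lower with a pseudocount of 0.1 (-2.70), at a common total (-1.60), after quantile normalization (-1.30) and with GC and length trends removed (-1.32). From D7 to D12, NanogBiD had 3 lower (Fos, Jun and Atf3, beside 8.37%), with 20% in all, and NanogWT had 1 higher (Fosl2, beside 6.66%), with 11.3% in all. Among the members not called in NanogBiD, limma gave Junb -1.02 (SE 0.60, adjusted p = 0.18), Fosl2 -0.71 (adjusted p = 0.0048) and Jund 0.97 (adjusted p = 0.034). Junb was called lower with GC and length trends removed (-1.50), and Jund higher after quantile normalization (1.03).

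Both Atf3 calls in NanogWT, at -1.30 from D0 to D1 (adjusted p = 0.0078) and -1.23 from D0 to D7 (adjusted p = 0.0057), were lost without replicate 1 of NanogWT D0, at -0.57 and -0.50, and that at D1 also without replicate 2 of NanogWT D1 (-1.16, adjusted p = 0.070). Tests of the difference between the combinations called 2 members for the change from D0 to D7, with 10.1% of all genes called. Atf3 had the higher change in NanogBiD (beside 5.2% of all genes) and Fosl2 the lower (-1.19, SE 0.27, adjusted p = 0.0043, beside 4.88%). For the change from D7 to D12, 4 were called (Fos, Fosl2, Jun and Atf3), all lower in NanogBiD, beside 7.33% of all genes lower and 14.1% in all. These tests and those within the combinations share the libraries of D0 and D7.

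In established iPSC the members were measured in a separate transcript table, summed by gene, whose MEF and mES values differ from those of the gene table (Jund in MEF, 52.1 and 45.1 FPKM against 134 and 113 FPKM). For Fosl1 the shift was uneven, with 2.42 against 7.08 FPKM in MEF replicate 1 and 12.7 against 15.2 FPKM in replicate 2. Differences of Fosl1 from MEF carry that uncertainty. Levels are therefore compared only within the transcript table. Fosl2 ran from 0.0564 to 9.16 FPKM in the 6 NanogBiD iPSC (median 0.492) and from 0.148 to 2.65 FPKM in the 6 NanogWT iPSC (median 0.454), against 41.4 and 37.1 FPKM in MEF. Jun ran from 1.70 to 13.1 FPKM (median 4.72) and from 1.94 to 8.89 FPKM (median 4.57), against 31.9 and 38.1 FPKM. Junb ran from 6.30 to 13.0 FPKM (median 8.37) and from 7.01 to 13.9 FPKM (median 8.25), against 55.8 and 57.2 FPKM. For these 3 genes no iPSC library reached the MEF libraries.

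Of 7 members tested, 5 were lower in iPSC than in MEF, where 18.7% of 13312 genes were called lower and 40.5% in all. The log2 difference was -4.49 for Fosl2 (SE 0.62, adjusted p = 1.1e-05), -2.69 for Jun (SE 0.48, adjusted p = 0.00014) and -2.61 for Junb (SE 0.22, adjusted p = 6.4e-08). It was -2.43 for Fosl1 (SE 0.39, adjusted p = 4.9e-05) and -1.26 for Fos (SE 0.27, adjusted p = 0.00068). Jund (-0.46) and Atf3 (-0.88) were not called, and Fosb did not reach the level required for the test. The median of the 7 differences was -2.43 and that of all genes 0.21.

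Between NanogBiD and NanogWT iPSC, limma called 0 of the 7 members and 0 of 12456 genes, 0%, with 201 genes and none of the members at an unadjusted p under 0.05. The differences of the members ran from -0.19 (SE 0.18) for Jund to 0.44 (SE 0.45) for Fosl2. The Fosl2 value rested on sample 9 of NanogBiD iPSC1, which held 9.16 FPKM; without it the difference was -0.05 (SE 0.29). The same library had the highest Fosl1 (1.35 FPKM) and Jun (13.1 FPKM) of all 12 and a summed level of 9 fibroblast markers of 1328 FPKM, against 3.4 to 419 FPKM in the other iPSC and 6235 and 6619 FPKM in MEF. The highest Fosl2 and Fosl1 among NanogWT iPSC were in sample 3 of iPSC1, the library with 419 FPKM of fibroblast markers. The part of these markers in the AP-1 values was not tested. With each of the 14 libraries left out in turn, 5 members were called lower in iPSC than in MEF. The 3 NanogBiD iPSC2 libraries were below the 3 iPSC1 libraries in Jun, Fosl2, Fos and Atf3, and in summed fibroblast markers (3.4 to 4.8 FPKM against 41.1 to 1328 FPKM). In NanogWT the lines overlapped, with sample 5 of iPSC2 (Jun 4.33, Fosl2 0.806 and Atf3 2.28 FPKM) inside the range of iPSC1. Line and passage cannot be told apart.

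**Figure D4:**
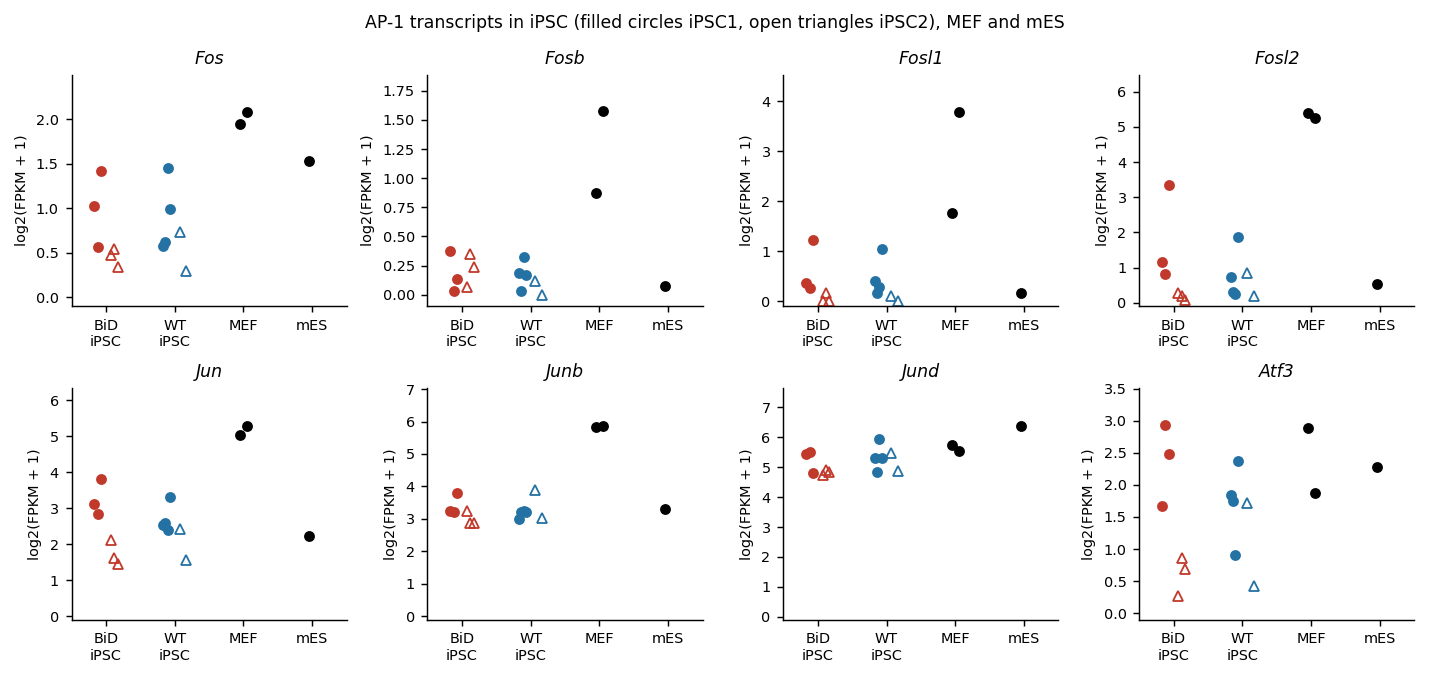
log2(FPKM + 1) of the 8 AP-1 genes (y axis) in each iPSC library of the 2 combinations (filled circles iPSC1, open triangles iPSC2), in MEF and in mES (x axis), from the transcript table summed by gene. Fosl2, Jun and Junb lie below both MEF libraries in all 12 iPSC libraries, and a single NanogBiD iPSC1 library stands out in Fosl2.

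Genes around AP-1 were followed through lists of known genes. Of 18 widely cited AP-1 targets, 17 were tested. In NanogBiD against NanogWT, 1 was called lower at D1 (0.962% of all genes), 2 at D3 (2.45%), 3 at D5 (3.28%) and 5 at D7 (4.65%), and none was called higher on these days. At D10, 8 were lower (12.3%) and 1 higher (15.4%), and at D12 8 lower (9.97%) and 2 higher (13.5%), with a list median of -1.11 at D12 against 0.17 for all genes. Ptgs2, the inducible prostaglandin synthase, was lower in NanogBiD at D1 (-1.94, a day with no member called), D3 (-2.25), D5 (-2.55), D7 (-2.14), D10 (-2.32) and D12 (-2.27), the last days being outside the naming rule and added after their values were seen. At D7 it stood at 1.31 and 1.83 FPKM against 10.1 and 10.4 FPKM. The matrix metalloproteinase Mmp3 held 0 and 0.0846 FPKM against 7.99 and 17.9 FPKM at D12 (-3.64, SE 0.32, adjusted p = 1.9e-08). The chemokine Ccl2 (-3.61), the collagenase Mmp13 (-3.46) and the protease inhibitor Timp1 (-2.42) were also lower at D12. The 2 higher ones, named after their values were seen, were the chromatin protein gene Hmga1 (1.79) and the growth factor gene Hbegf (1.27).

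For the lists that follow, the shares of all genes called on these days, given above, are the background. Among 16 other immediate-early genes, the direction was mixed, with 1 lower at D3, 2 higher and 1 lower at D5, 1 higher and 1 lower at D7, 3 higher and 3 lower at D10, and 3 higher and 4 lower at D12. The YAP-responsive Ctgf was lower from D3 (-3.05) to D12 (-1.82), Cyr61 was lower at D10 (-2.72) and D12 (-3.02), and Klf10, a TGF-beta-induced repressor, was higher from D5 (1.19) to D12 (2.43). Of 21 other bZIP factors, 18 were tested. At D0, 1 was lower (Atf5, -1.40), none was called at D1, D3 or D5, and at D7 Nfe2l3 was lower (-1.61) and Bach2 higher (1.04). At D10 6 were lower and at D12 5, which included Atf5 (-2.08), Jdp2 (-1.35), which also pairs with JUN, and Maf (-1.31). Of the 14 kinases of the ERK, JNK and p38 cascades none was called from D0 to D7, 3 were higher at D10 and 1 at D12 (Map3k1, 1.60). Of 7 heat shock genes, none was called up to D5, 1 was higher at D7 and D12 and 2 at D10, and of 7 integrated stress response genes, 1 was lower at D0 (Trib3, -1.08), none was called from D1 to D7 and Asns was higher at D10 and D12 (2.48 and 2.08). At D12 the list medians were -0.09 for the immediate-early genes, -0.64 for the other bZIP factors, 0.31 for the kinases, 0.34 for the heat shock genes and -0.42 for the integrated stress response, beside 0.17 for all genes.

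Cell-state markers moved beside these genes. Summed over 9 fibroblast markers, NanogBiD went from 1697 and 1715 FPKM at D0 to 217 and 328 FPKM at D7. It held 578 FPKM in the library of D8 and 195 and 302 FPKM at D12. NanogWT went from 1820 and 2039 FPKM to 502 and 543 FPKM and back to 1790 and 2235 FPKM. MEF held 5597 and 6143 FPKM, so these markers came back near their D0 level and not to that of MEF. Fosl2 in NanogWT also fell and rose again, but came back near MEF. Summed over 9 pluripotent markers (without the transduced genes), NanogBiD reached 97.0 and 106 FPKM at D7 and 1242 and 2233 FPKM at D12, against 2.8 and 3.6 FPKM and 161 and 222 FPKM in NanogWT and 3689 FPKM in mES. In MEF all 9 fibroblast markers were at 1 FPKM or more and 8 of 9 pluripotent markers were at 0 in both libraries. Of 5 epithelial markers 4 were tested, and all 4 were higher in NanogBiD at D10 and D12 (medians 3.64 and 3.22). Their list summed to 29.4 and 33.4 FPKM against 5.18 and 5.39 FPKM at D7 and to 69.9 and 143 FPKM against 4.39 and 13.0 FPKM at D12. Of 3 keratinocyte markers only Trp63 passed the filter, and it was lower in NanogBiD from D3 (-1.03) to D12 (-2.32). The list summed to 0.757 and 1.19 FPKM against 6.58 and 6.63 FPKM at D7. On that day Krt14 was at 0 in both combinations and Krt5 at 0 in NanogWT, so that the NanogWT sum was Trp63 alone. The part of the shift in cell state in the AP-1 differences was not tested. Relative depth, read from the smallest step of the low FPKM values, lay at 1.86 to 3.19 in the 6 NanogWT libraries of the 2iL days. The other 25 time-course libraries lay at 0.813 to 1.10, so that depth and combination cannot be told apart from D8 on. The total FPKM of a time-course library was 370030 to 462190.

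Genes whose log2 levels followed a member most closely over the 31 time-course libraries were named by Pearson r as a description, since the points share libraries and days. For Fosl2 they were Mxra8 (r = 0.96), 2310022B05Rik (0.96) and Adamts5 (0.95). For Fosl1 they were Brinp1 (0.94), Prkg2 (0.93) and Gm10561 (0.93), for Jund Ptms (0.95), Adgrd1 (0.90) and Ldb1 (0.88), and for Junb Akt1 (0.93), Flot1 (0.93) and Vamp8 (0.93). For Fos they were Trim16 (0.88), Ric8a (0.86) and Ifngr2 (0.85), for Jun Nckap5l (0.89), Tfip11 (0.88) and Pgs1 (0.87), and for Fosb Nt5dc3 (0.90), Klk8 (0.89) and Mdm2 (0.88). Atf3 had the least close companions, Bcar1 (0.75), Kcnmb4os1 (0.74) and Cthrc1 (0.73).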

How the data were processed

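RNA was sequenced from 46 samples. Per the authors, Trim Galore 0.6.4 served for trimming, HISAT2 2.2.1 for alignment to mm10 and StringTie 2.2.1 for quantification. The values they deposited are FPKM, with replicates kept apart, in a gene table (37108 genes, 34 libraries) and a transcript table (106520 transcripts, 15 libraries), which was summed by symbol. The annotation and any use of strand in counting are not given in the sources used here. FPKM hold no counts, so precision is known only from replicates, and the depth behind the transcript table is unknown.

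Groups came from the sample labels. The members, the lists and the tests were chosen with earlier results of these data known. Values were analysed as log2(FPKM + 1) in limma 3.58.1 (R 4.3.3), two-sided, with an intensity trend and Benjamini-Hochberg adjustment. A gene entered where 2 or more samples held 1 FPKM or more, which left 16842 genes in the time course, 12456 in the iPSC and 13312 in iPSC with MEF. The time-course fit held the 16 groups of combination and day, and the iPSC fit the line as covariate. All 8 members were named in every comparison, with at most 4 called genes per list and comparison (exceptions are stated, and 1 such gene is not reported here) and, per member, the 3 genes of highest Pearson r. Summaries and figures used Python 3.11.15, pandas 2.3.3, numpy 2.4.6 and matplotlib 3.10.9.

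The settings changed in turn were the pseudocount (0.1), the filter (none), the scaling (a common total, or quantile normalization), the samples fitted (the compared groups alone, or each library left out), the replicate number as a block and, for the iPSC, the mean of the NanogWT samples 1# and 1#-2. Removal of trends over GC content and length (15428 genes, 91.6%, splines with 5 degrees of freedom) was added after seeing the data.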

Additional observations from a re-analysis of the deposited data

Results flagged for a closer look

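In the iPSC, 16 groups of 6 values (8 genes in each combination) were screened for a single sample far from the others. Of these, 6 exceeded Dixon's critical value of 0.625. That value flags about 1 group in 20 where values are normally distributed and groups independent. Here the ratios were taken on FPKM and the 8 genes share libraries, so that rate is no reference for the 6 flags. The screen was not run on the log2 scale. Sample 9 of NanogBiD iPSC1 stood above the other 5 NanogBiD samples in Fosl2 (gap 0.87 of the range), Fosl1 (0.783) and Junb (0.671), and it also held the most fibroblast markers (1328 FPKM). Sample 3 of NanogWT iPSC1 stood apart in Fosl2 (0.737) and Fosl1 (0.684), with 419 FPKM of fibroblast markers. Sample 5 of NanogWT iPSC2 stood apart in Junb (0.79), with 28.6 FPKM of fibroblast markers.

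In the time course, the change over a period differed between the combinations by a limma test of the difference itself. From D0 to D7 the difference (NanogBiD minus NanogWT) was -1.19 for Fosl2 and 1.76 for Atf3 on the log2 scale. From D7 to D12 it was -1.45 for Fos, -1.87 for Fosl2, -1.69 for Jun and -2.14 for Atf3. The switch to 2iL fell into the second period, as did a rise of fibroblast markers in NanogWT. In NanogBiD these markers also stood higher in the D8 library (578 FPKM) than at D7, and at 195 and 302 FPKM at D12. The part of the switch and of these markers was not tested.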

How the results depend on the processing

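Between the combinations, the calls of Jun and Atf3 at D5, Atf3 at D7, Fosl2, Jun and Junb at D10 and Fosl2 at D12 were kept under every setting run, leaving out a library included, and no called difference of a member changed sign. Apart from leaving out a library, 17 of 143 counts of called members moved by over 1.5 times. NanogBiD against NanogWT at D0 went from 1 call to 0 with a pseudocount of 0.1, without the filter, at a common total, with GC and length trends removed and with the compared groups alone. At D7 it went from 2 to 4 with a pseudocount of 0.1. With the compared groups alone, which leaves few degrees of freedom, D3 went from 2 to 0, NanogBiD D1 against D0 from 3 to 1, NanogWT D1 and D7 against D0 from 2 to 0 each, NanogBiD D0 against MEF from 4 to 2 and NanogWT D0 against MEF from 1 to 0. NanogWT D12 against D7 went from 1 to 2 (Fosl1 added) with a pseudocount of 0.1, at a common total, after quantile normalization and with GC and length trends removed. With those trends removed, NanogBiD D0 against MEF went from 4 to 2.

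With each library left out in turn, the counts for NanogBiD against NanogWT ran from 0 to 4 at D0, 0 to 2 at D3, 1 to 3 at D7, 3 to 4 at D10 and 1 to 4 at D12, and stayed at 0 at D1 and 2 at D5. They ran from 1 to 3 for NanogBiD D12 against D7, 1 to 3 for NanogWT D1 against D0, 1 to 2 for NanogWT D12 against D7, 1 to 3 and 2 to 4 for the changes compared between combinations, 2 to 5 for NanogBiD D0 and 1 to 3 for NanogWT D0 against MEF. The libraries without which a call was lost are named beside it in the report. Further calls appeared without 1 library. Without NanogWT D0 replicate 2 these were Junb (-2.29), Jund (-1.42) and Atf3 (-1.002) at D0, Jun for the change from D0 to D7 (1.502) and Atf3 against MEF (1.62, and 1.40 without MEF replicate 1). Between the combinations Jun was called at D3 without NanogBiD D3 replicate 2 (1.27), and Fosl1 at D7 without NanogBiD D7 replicate 1 (-1.06) or NanogWT D7 replicate 2 (-1.14). Within NanogBiD they were Atf3 at D1 (-1.22), Fosb at D7 (-1.01 and -1.08) and Jund from D7 to D12 (1.28), within NanogWT Fosl1 from D7 to D12 (-1.14 and -1.18), and against MEF Fosl1 at NanogBiD D0 (-1.25 and -1.45).

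The replicate numbers mark no shared batch in the labels, and the correlation of the deviations of samples with the same number ran from -0.065 to 0.394 over the days. In a fit blocked on these numbers, the count of called members was the same in all 19 time-course comparisons, for example 4 at D10. No paired analysis was possible for the iPSC because the numbers shared between the combinations mark samples of different lines. No counts were at hand, so what depth limits could not be computed.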
